A study of Mus musculus with 58 samples.

Results

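The genes described here are 10 whose RNA was higher in Kmt5b heterozygous than in wild-type mouse prefrontal cortex: F2r, Cd44, Ccdc80, Npnt, Matn2, P4ha3, S100a10, Mctp2, Map3k15 and Gsto1. They were selected on that difference, averaged over treatments and of the same sign in both sexes, and Matn2 and P4ha3 had also been named under vehicle alone. The 10 are among 18088 genes in the table, of which 16669 passed a filter of a mean normalised count of at least 10, and all 10 passed it. Their genotype differences are therefore given as a description with no test, while the comparisons of drugs and sexes did not choose them.

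RNA came from C57BL/6J mice labelled heterozygous (HT) or wild-type (WT) for Kmt5b, which encodes a histone H4 lysine methyltransferase. The labels do not describe the Kmt5b allele. Nursing pups received vehicle, fluoxetine (a serotonin reuptake inhibitor) or lithium (a mood stabiliser) with the milk of their dams from postnatal day 3 to 24, for 3 weeks, and cortex was taken on day 25. There were 10 libraries, 5 from each sex, for every genotype and treatment except WT lithium, which had 8, so 30 HT and 28 WT libraries were compared. All animals of a drug group were exposed through a dam, and the labels name neither litters nor animals. The p values therefore measure the spread between these libraries. If libraries share a litter, those of the drug comparisons may be too small.

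The extracellular matrix of the brain is a mesh of hyaluronan, proteoglycans, glycoproteins and a little collagen, made by neurons, glia and cells of vessels and meninges, and cells read it through receptors such as integrins and CD44. Matrix proteins are modified in the endoplasmic reticulum before secretion, and proteases at the cell surface both remodel the matrix and signal through cleaved receptors. The shared name of matrix and surface genes covers only some of the 10. Matn2, Npnt and Ccdc80 encode secreted matrix proteins, P4ha3 a collagen-modifying enzyme of the endoplasmic reticulum, and F2r and Cd44 cell-surface receptors. S100a10 encodes p11, an annexin A2 partner on the inner face of the membrane, Mctp2 a C2 domain protein of the endoplasmic reticulum membrane, Map3k15 the cytosolic kinase ASK3 and Gsto1 a cytosolic glutathione transferase.

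Promoter sequence is shown for the 2 pairs of genes that passed a test for varying together within groups (described further on), F2r with P4ha3 and Cd44 with Npnt. Neither pair passed with olfactory bulb marker level as a covariate. Each run holds the 250 bases before a RefSeq start site (GRCm38.p6), 5′ to 3′ on the strand of the gene, and the last 21 bases of the F2r run lie inside the GENCODE gene. Of 2 start sites of Npnt the upstream one is shown. Capitals mark the GC box GGGCGG and the AP-1 site TGANTCA, searched on both strands. F2r lies at chr13:95618467-95618716 (minus strand), P4ha3 at chr7:100285270-100285519 (plus), Cd44 at chr2:102901666-102901915 (minus) and Npnt at chr3:132950292-132950541 (minus).
F2r: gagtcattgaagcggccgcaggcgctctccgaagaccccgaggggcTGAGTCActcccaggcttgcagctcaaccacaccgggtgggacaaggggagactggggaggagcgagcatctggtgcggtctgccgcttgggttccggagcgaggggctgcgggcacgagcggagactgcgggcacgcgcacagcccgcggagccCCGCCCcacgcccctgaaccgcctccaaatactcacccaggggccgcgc
P4ha3: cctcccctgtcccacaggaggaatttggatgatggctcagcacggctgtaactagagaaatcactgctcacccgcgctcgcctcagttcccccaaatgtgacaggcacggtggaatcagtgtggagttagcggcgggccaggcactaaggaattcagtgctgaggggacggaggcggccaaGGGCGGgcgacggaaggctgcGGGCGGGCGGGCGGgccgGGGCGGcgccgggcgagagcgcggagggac
Cd44: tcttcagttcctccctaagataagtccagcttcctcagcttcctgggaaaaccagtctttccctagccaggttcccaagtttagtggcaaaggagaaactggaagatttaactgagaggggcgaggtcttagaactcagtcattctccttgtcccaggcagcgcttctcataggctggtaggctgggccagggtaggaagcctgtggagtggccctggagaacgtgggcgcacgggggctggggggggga
Npnt: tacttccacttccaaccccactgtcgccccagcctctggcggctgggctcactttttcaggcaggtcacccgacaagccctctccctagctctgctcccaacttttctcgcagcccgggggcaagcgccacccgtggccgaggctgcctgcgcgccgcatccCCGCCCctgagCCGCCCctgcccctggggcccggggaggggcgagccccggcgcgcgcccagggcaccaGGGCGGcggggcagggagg
The P4ha3 run held 5 GC box matches, 3 of them overlapping, the Npnt run 3, the F2r run 1 and the Cd44 run 0. The window of the other Npnt start site (chr3:132949815-132950064, 69.6% GC) held none. Only the F2r run among these 4 held the AP-1 letters, once. Of 32851 RefSeq promoters cut to the same length, 32.7% held a GC box and 6.75% an AP-1 site. The CCAAT box (CCAAT, in 33.8% of promoters), the TATA box (TATAAA, in 12.4%) and the E-box (CACGTG, in 6.02%) were in none of the 4. The GC content was 70.8% for F2r, 67.2% for P4ha3, 74% for Npnt and 56.4% for Cd44, where the median of all promoters was 52.4%. Among the 6 genes with a promoter in that table, Gsto1 held 1 GC box and Mctp2 none, with 1 CCAAT box. Ccdc80, Matn2, S100a10 and Map3k15 had no entry. These matches describe letters in a window and were not compared with binding data.

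Whole-series checks were brief. Recovered reads ran from 23.5 to 38.6 M per library, with a median of 27.6 M. Kmt5b RNA (chr19:3767421-3818303) was 1734 ± 98.3 normalised counts in HT (SD, n = 30) and 1654 ± 137 in WT (n = 28), which is 0.07 on the log2 scale (adjusted p = 0.186 in limma). It was not lower in HT, so HT and WT below stand for the libraries so labelled. Cortical markers were abundant: all 8 markers of cortical excitatory neurons were in the table, with sums of 111387.3 to 185049.3 normalised counts per library. Olfactory bulb markers varied far more, from 141.3 to 11816.4 for the sum of 6 genes, and 10 libraries had a low level of them: 3 HT fluoxetine, 1 WT fluoxetine, 3 HT lithium and 3 WT vehicle. Striatal markers, 11 genes, summed to 6427.5 to 16649.8, highest in HT fluoxetine female 2. No list had a marker at 0 in every library. In bulk tissue, fewer cells of a type and less RNA per cell cannot be told apart.

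Levels of different genes are compared per kb of exon. S100a10 (429 normalised counts per kb of exon, mean of 58 libraries), Gsto1 (351) and Npnt (341) were the most abundant, near the 81st, 77th and 76th percentile of all genes tested. Matn2 stood at 118, Ccdc80 at 82.5 and F2r at 52.8. P4ha3 at 24.5, Cd44 at 16.7, Map3k15 at 11.5 and Mctp2 at 4.61 normalised counts per kb of exon were the least abundant. The 4 least abundant genes had the widest spread within groups, an SD on the log2 scale of 0.33 for Mctp2, 0.23 for Map3k15, 0.22 for Cd44 and 0.21 for P4ha3, against 0.10 for Gsto1 and 0.11 for S100a10, so a higher difference was needed for them to be selected, and nothing is read from the order of the differences.

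**Figure D1:**
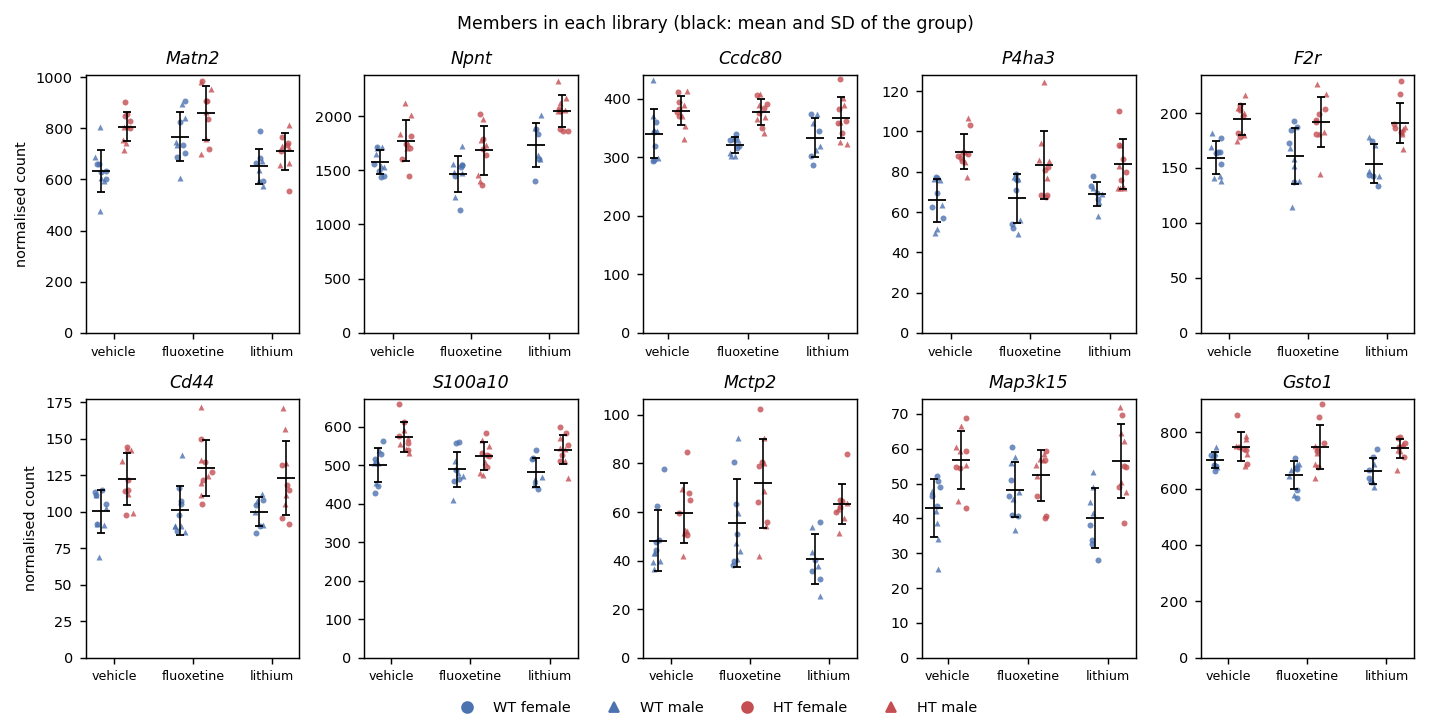
Normalised count (vertical axes, from 0) of each of the 10 genes in every library, by treatment, with WT in blue and HT in red, circles for females and triangles for males, and the mean with SD of each genotype and treatment in black. HT means lie above WT means in every panel and treatment, and the groups overlap except for P4ha3 under vehicle and Ccdc80 under fluoxetine.

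Over all treatments 78 genes, or 0.468% of those tested, passed HT against WT in limma (adjusted p under 0.05), and this contrast chose the 10. The median log2 difference of the 10 was 0.25, where that of all tested genes was 0.00 to 2 decimals, and all 10 were above 0 under each treatment and in each sex. Every HT library lay above every WT library for P4ha3 under vehicle, for Ccdc80 under fluoxetine and for none of the 10 under lithium. Of all genes tested, 0.012% under vehicle, 0.018% under fluoxetine and 0.024% under lithium were separated in that way. Since the choice of members fixes such counts, nothing is read from them.

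Matn2 (ENSMUSG00000022324, chr15:34306677-34436273) encodes matrilin-2, a von Willebrand factor A domain protein that joins matrix filaments. Under vehicle its normalised counts ran from 715.8 to 902.6 in HT (median 806.3) and from 476.7 to 804 in WT (median 630.6). Under fluoxetine they ran from 700.3 to 984.9 in HT (median 885) and from 605.8 to 905.5 in WT (median 741.7). Under lithium HT libraries lay between 555.2 and 813.9 (median 727.4) and WT libraries between 574.7 and 791.1 (median 649.7). Vehicle WT was the low group, and 9 of its 10 libraries lay under the lowest vehicle HT library, whereas under lithium the genotypes overlapped nearly whole. The HT minus WT log2 difference was 0.35 (SE 0.0724) under vehicle, 0.17 (SE 0.0724) under fluoxetine and 0.12 (SE 0.0767) under lithium.

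Npnt (ENSMUSG00000040998, chr3:132881745-132950291) encodes nephronectin, a basement membrane protein and ligand of integrin alpha8 beta1. Its counts were 1443 to 2117 in vehicle HT (median 1741) and 1436 to 1716 in vehicle WT (median 1546). With fluoxetine they were 1364 to 2020 in HT (median 1713) and 1130 to 1722 in WT (median 1504). With lithium they were 1863 to 2323 in HT (median 2052) and 1400 to 2011 in WT (median 1735). Lithium-exposed HT libraries were the high group, and 7 of 10 exceeded the highest lithium WT library. The genotype log2 difference was 0.16 (SE 0.0653), 0.19 (SE 0.0653) and 0.24 (SE 0.0693) under vehicle, fluoxetine and lithium.

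Ccdc80 (ENSMUSG00000022665, chr16:45093402-45128077) encodes a secreted protein with DRO1 domains that binds matrix. Vehicle HT libraries held 331.8 to 413.6 normalised counts (median 380.6) and vehicle WT libraries 294.2 to 432.3 (median 344.2), the highest of the 20 being a WT library. Fluoxetine HT libraries held 341 to 408 (median 379.6) and fluoxetine WT libraries 302.9 to 339.1 (median 324.2), with no overlap. Lithium HT libraries held 323.1 to 434.1 (median 361.2) and lithium WT libraries 286.2 to 374.2 (median 331.9). The spread of WT was narrowest with fluoxetine, an SD of 13.3 against 42.5 with vehicle. Log2 differences were 0.16 (SE 0.0548), 0.23 (SE 0.0548) and 0.14 (SE 0.0581) under vehicle, fluoxetine and lithium.

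P4ha3 (ENSMUSG00000051048, chr7:100285520-100319699) encodes a catalytic subunit of prolyl 4-hydroxylase, which hydroxylates collagen prolines so that the triple helix is stable. Under vehicle HT libraries ran from 77.4 to 106.8 (median 88.3) and WT libraries from 49.5 to 77.2 (median 66.3), the ranges meeting without overlap. Under fluoxetine they ran from 67.6 to 124.5 (median 81.7) in HT and from 49.1 to 79.0 (median 73.6) in WT. Under lithium they ran from 71.8 to 110.0 (median 81.3) in HT and from 58.2 to 77.9 (median 69.2) in WT. Over all treatments 21 of 30 HT libraries exceeded the highest WT library. Log2 differences were 0.46 (SE 0.0957), 0.32 (SE 0.0957) and 0.27 (SE 0.102).

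F2r (ENSMUSG00000048376, chr13:95601803-95618487) encodes PAR1, the G protein-coupled receptor that thrombin activates by cleavage. Under vehicle HT libraries ran from 174.7 to 216.5 (median 198.5) and WT libraries from 137.8 to 181.8 (median 164). Under fluoxetine they ran from 144.9 to 226.3 in HT (median 192.6) and from 114.9 to 193.1 in WT (median 163.4). Under lithium they ran from 167.1 to 229.3 in HT (median 185.9) and from 133.2 to 177.9 in WT (median 145.4), where 9 of 10 HT libraries were above every WT library. The 3 log2 differences were close to each other, 0.29 (SE 0.0709), 0.26 (SE 0.0709) and 0.31 (SE 0.0752).

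Cd44 (ENSMUSG00000005087, chr2:102811141-102901665) encodes the main cell-surface receptor of hyaluronan. Vehicle libraries ran from 97.4 to 144.4 in HT (median 118.4) and from 68.9 to 114.8 in WT (median 103.6). Fluoxetine libraries ran from 104.9 to 171.8 in HT (median 125.6) and from 85.8 to 138.9 in WT (median 93.9). Lithium libraries ran from 91.5 to 170.7 in HT (median 116.4) and from 85.2 to 112.4 in WT (median 102.2). The HT groups reached higher, and their lower ends overlapped WT. The log2 difference over treatments was 0.21 (SE 0.0812) in females and 0.41 (SE 0.0812) in males, a difference between sexes that was not tested.

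S100a10 (ENSMUSG00000041959, chr3:93555080-93564643) encodes p11, known for bringing serotonin receptors and ion channels to the cell surface. Vehicle HT libraries held 531.1 to 659.2 (median 564.3) and vehicle WT libraries 427.8 to 562.3 (median 509.5). With fluoxetine the ranges were 473.6 to 584.8 in HT (median 525.8) and 409.4 to 561.6 in WT (median 484.7). With lithium they were 468.1 to 599.1 in HT (median 543.8) and 439.3 to 539.9 in WT (median 466.9). Vehicle HT was the high group, and the genotypes overlapped most with fluoxetine. Log2 differences were 0.20 (SE 0.0504), 0.10 (SE 0.0504) and 0.17 (SE 0.0534).

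Mctp2 (ENSMUSG00000032776, chr7:72077830-72306608) encodes one of a pair of C2 domain proteins with transmembrane regions. It had the widest relative spread: 41.8 to 84.6 in vehicle HT (median 56.2) and 36.4 to 77.8 in vehicle WT (median 43.6). With fluoxetine it ran from 41.7 to 102.6 in HT (median 73.8) and from 38.0 to 90.3 in WT (median 49.0). With lithium it ran from 51.4 to 83.7 in HT (median 62.4) and from 25.4 to 56.1 in WT (median 39), where 9 of 10 HT libraries lay above all 8 WT libraries. Log2 differences were 0.31 (SE 0.146), 0.38 (SE 0.146) and 0.65 (SE 0.155).

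Map3k15 (ENSMUSG00000031303, chrX:159988433-160123351) encodes ASK3, a stress-responsive MAP kinase kinase kinase that reacts to osmotic change. Vehicle libraries ran from 43 to 68.9 in HT (median 57.3) and from 25.4 to 52.1 in WT (median 44.96). Fluoxetine libraries ran from 40.04 to 59.5 in HT (median 56.0) and from 36.6 to 60.6 in WT (median 47.0), and no HT library exceeded the highest WT library. Lithium libraries ran from 38.6 to 71.9 in HT (median 54.9) and from 28.0 to 53.4 in WT (median 39.8). The log2 difference was 0.41 (SE 0.106) under vehicle, 0.12 (SE 0.106) under fluoxetine and 0.49 (SE 0.113) under lithium. Map3k15 overlaps Pdha1 on the other strand, which had a mean of 7640 normalised counts. The libraries were stranded, but whether the counting used strand is not given in the sources used here. If it did not, reads of the pair may not be told apart.

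Gsto1 (ENSMUSG00000025068, chr19:47854970-47864790) encodes an omega-class glutathione transferase with thiol transferase activity. Vehicle libraries ran from 680.5 to 860.1 in HT (median 744.1) and from 662.7 to 747.4 in WT (median 701.2). Fluoxetine libraries ran from 637 to 900.5 in HT (median 739.8) and from 567 to 709.6 in WT (median 668.5). Lithium libraries ran from 667.8 to 782.7 in HT (median 750.8) and from 604.6 to 740.6 in WT (median 652). HT medians stayed within a narrow band over treatments, and the vehicle WT median was the highest of the 3 WT medians. Log2 differences were 0.09 (SE 0.0452), 0.20 (SE 0.0452) and 0.17 (SE 0.0480). Gsto1 overlaps Cfap43, which had 11.9 normalised counts, on the other strand.

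**Figure D2:**
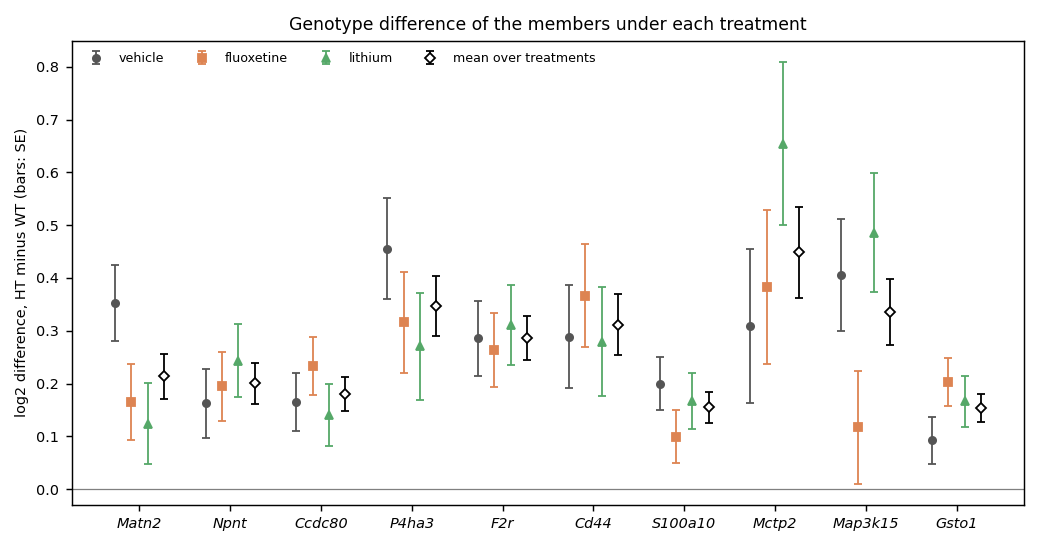
Log2 difference HT minus WT (vertical axis, bars are SE) of each gene under vehicle, fluoxetine and lithium and as the mean over treatments. All values lie above 0, Map3k15 is lowest under fluoxetine (0.12) and Mctp2 highest under lithium (0.65).

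Whether the genotype difference changed with a drug was tested as an interaction for the 8 genes not named under vehicle alone. None passed for fluoxetine, where 0.042% of all genes did, or for lithium, where 0% did (limma, adjusted p under 0.05). None of the 8 had an unadjusted p under 0.05 in limma, as did 11.1% of all genes for fluoxetine and 13.9% for lithium. With 8 genes, nothing is read from that count. edgeR and DESeq2 on 54 libraries also called none. For Map3k15 the fluoxetine interaction was -0.29 (SE 0.151, adjusted p = 0.47), and for Mctp2 the lithium interaction was 0.35 (SE 0.213, adjusted p = 0.463). For Matn2, chosen in part under vehicle, the values were -0.19 with fluoxetine and -0.23 with lithium, and for P4ha3 -0.14 and -0.18, all as a description.

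Fluoxetine against vehicle, averaged over genotypes and sexes, called 23.5% of all genes in limma, 11.5% higher and 12% lower. Of the 10 genes, 1 rose and none fell. Matn2 rose from 720 ± 112 normalised counts with vehicle (SD, n = 20) to 815 ± 109 with fluoxetine (n = 20), or 0.18 on the log2 scale (SE 0.0512) with an adjusted p of 0.00771 in limma, and the groups overlapped. Its log2 difference was 0.28 in WT and 0.09 in HT, which are descriptions because Matn2 was also chosen on the vehicle libraries. S100a10, whose protein has been studied in responses to antidepressants, had a log2 difference of -0.08 (SE 0.0356, adjusted p = 0.0951). Npnt had -0.09 (SE 0.0462, adjusted p = 0.139) and Mctp2 0.21 (SE 0.103, adjusted p = 0.13). The other 6 lay between -0.06 and 0.05. Without WT vehicle female 3, S100a10 passed as well, making 2 genes called.

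Lithium against vehicle called 14.8% of all genes, 8.04% higher and 6.8% lower, and again 1 of the 10 rose and none fell. Npnt rose from 1675 ± 182 normalised counts (SD, n = 20) to 1905 ± 231 (n = 18), or 0.17 on the log2 scale (SE 0.0476) with an adjusted p of 0.0109 in limma, with overlap between the groups. The log2 difference was 0.21 in HT and 0.13 in WT, and their difference did not pass (0.08, adjusted p = 0.731). The other 9 lay between -0.07 and 0.00 on the log2 scale, and the lowest adjusted p among them was that of S100a10, 0.209.

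Lithium against fluoxetine called 12.3% of all genes and 2 of the 10, in opposite directions. It shares its libraries with the comparisons above. Npnt was higher with lithium by 0.26 (SE 0.0476, limma adjusted p = 9.39e-05) and Matn2 lower by a log2 difference of -0.25 (SE 0.0527, adjusted p = 0.00061). Mctp2 had -0.28 (SE 0.106, adjusted p = 0.0704). It passed in 3 of 16 other alternatives, which were the deep layer covariate (adjusted p = 0.0325), the fit without the 10 libraries low in olfactory bulb markers (adjusted p = 0.0451) and DESeq2. It also passed in 6 of 58 fits that left out 1 library, those without HT fluoxetine female 1, HT fluoxetine male 3, WT fluoxetine female 4, WT fluoxetine male 2, WT lithium female 2 or WT lithium male 1.

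**Figure D3:**
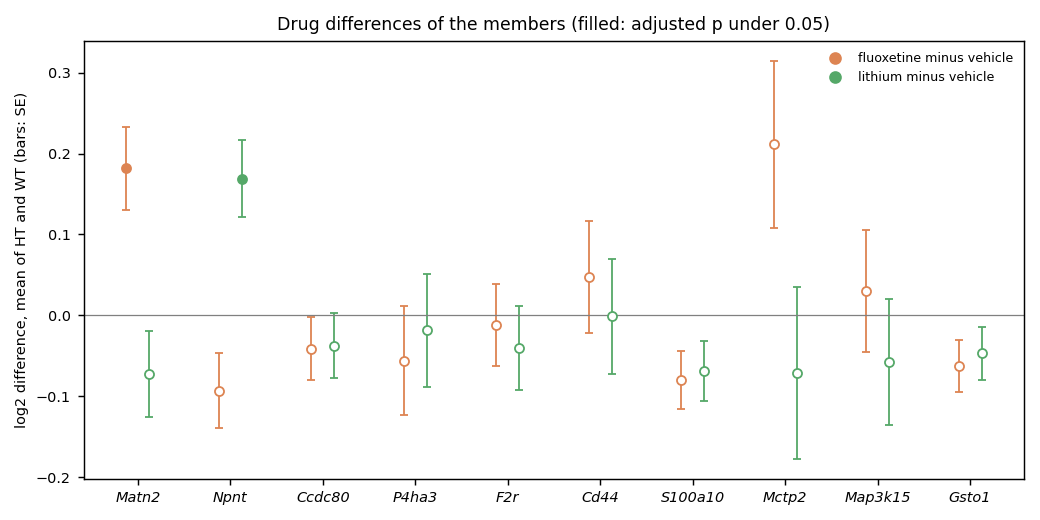
Log2 difference from vehicle (vertical axis, mean of both genotypes, bars are SE) with fluoxetine and with lithium for each gene, filled where the limma adjusted p is under 0.05. Matn2 is filled for fluoxetine (0.18) and Npnt for lithium (0.17), and no other point is filled.

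None of the 10 passed between females and males, where 0.132% of all genes did (limma), and edgeR and DESeq2 called none. Of the 10, 3 had an unadjusted p under 0.05, as did 8.25% of all genes: Mctp2 with a female minus male log2 difference of 0.18, S100a10 with 0.07 and Npnt with -0.09. The X-linked Map3k15 had -0.09 (SE 0.0628, adjusted p = 0.727).

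The genes that work beside the 10 were read from 9 lists of paralogs and partners, 155 genes without the members, of which 142 could be tested. None of the 142 passed HT against WT in limma, beside 0.468% of all genes, and 17 had an unadjusted p under 0.05, as did 10.6% of all genes. edgeR and DESeq2 also called none. The median log2 difference of the 142 was 0.02, beside -0.004 for all tested genes. Of the 142, 88 lay above 0, a count with no share of all genes beside it. In the matrilin and integrin list, none of 16 passed, and Matn1, the matrilin of cartilage, had the smallest p with 0.26 (adjusted p = 0.259). Srpx and Srpx2 share DRO1 domains with Ccdc80, and Srpx2 had 0.27 (SE 0.0803, adjusted p = 0.101). The other catalytic subunits of prolyl 4-hydroxylase gave -0.07 for P4ha1 (adjusted p = 0.359) and 0.08 for P4ha2 (adjusted p = 0.437).

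Among hyaluronan genes Hapln3, a link protein, had 0.31 (SE 0.0908, adjusted p = 0.0997) and Has3, a hyaluronan synthase, 0.20 (adjusted p = 0.16). Among glutathione enzymes Gstt2 had 0.21 (SE 0.0573, adjusted p = 0.07) and Gstm6 0.21 (SE 0.0593, adjusted p = 0.0773). The S100 and annexin list held no gene with an unadjusted p under 0.05, nor did the C2 domain list. In the ASK list 4 of 16 genes lay above 0, the lowest share of the 9 lists, and nothing is read from these counts of signs.

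**Figure D4:**
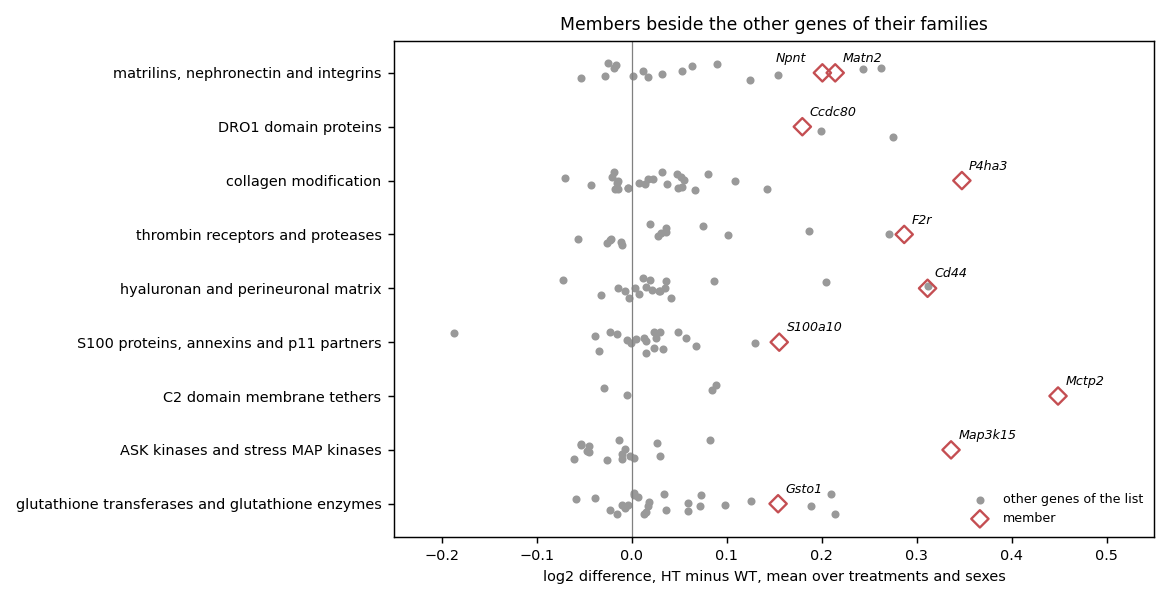
Log2 difference HT minus WT, mean over treatments and sexes (horizontal axis), for the 10 genes (open red diamonds) and the other tested genes of each list (grey points). The members were selected for being high, and no grey point passed, the highest being Hapln3 at 0.31.

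With fluoxetine 17 of the 142 partner genes rose and 12 fell, beside 11.5% and 12% of all genes, and with lithium 16 rose and 8 fell, beside 8.04% and 6.8%. Integrin alpha8 (Itga8), the receptor chain for nephronectin, rose by 0.35 with fluoxetine (limma adjusted p = 0.00018) and 0.22 with lithium (adjusted p = 0.0264). Itga10 rose by 0.42 and 0.51, and Itgav by 0.14 and 0.10. P4ha1 rose by 0.23 and P4ha2 by 0.34 with lithium, where P4ha3 had -0.02. Of the 25 tested genes of that list, 2 rose and 3 fell with lithium, and 4 rose and 1 fell with fluoxetine. Map3k6 (ASK2), a paralog of Map3k15, rose from 65.9 ± 14.0 normalised counts with vehicle (SD, n = 20) to 108.2 ± 32.5 with fluoxetine (n = 20) and 151.8 ± 29.6 with lithium (n = 18, limma adjusted p = 2.62e-10), where Map3k15 itself had log2 differences of 0.03 and -0.06.

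Ahnak, a large scaffold that binds p11 with annexin A2, rose by 0.46 with fluoxetine and 0.44 with lithium, while S100a16 fell by 0.18 and by 0.23. Hapln1, a link protein of perineuronal nets, rose by 0.21 with fluoxetine, and Cemip, which degrades hyaluronan, rose by 0.24 with lithium. Of the 19 tested genes of the hyaluronan list, 3 rose and 1 fell with each drug. Gsta4 fell by 0.15 with fluoxetine and by 0.16 with lithium. Plat, tissue plasminogen activator, rose by 0.15 with lithium. The medians of the 142 were 0.00 to 2 decimals with either drug, as were those of all genes.

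Most of the 10 genes did not pass a test for varying together within groups. Residuals from the 12 group means were correlated over 58 libraries for 45 pairs, and the median Pearson r was 0.02. After adjustment over the 45, 2 pairs passed: F2r with P4ha3 (r = 0.54, Spearman rho = 0.47, permutation p = 0.00053, adjusted p = 0.0239) and Cd44 with Npnt (r = 0.43, rho = 0.41, permutation p = 0.00119, adjusted p = 0.0268). Without the 2 libraries farthest from the median, r was 0.48 and 0.39. Over all tested genes the 99th percentile of r was 0.67 with F2r, 0.57 with P4ha3, 0.41 with Cd44 and 0.68 with Npnt. Neither pair is therefore read as particular to the members. F2r and Npnt varied in opposite directions (r = -0.45, permutation p = 0.00431, adjusted p = 0.0647).

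Marker levels were correlated with the members in the same way. Of 170 correlations of a member with a marker level, 17 passed. No share over all genes stands beside this count, so it is not read as particular to the members. F2r correlated with the olfactory bulb level (r = 0.63, rho = 0.59, adjusted permutation p = 0.00085) and inversely with cortical excitatory neurons (r = -0.69, rho = -0.67, adjusted permutation p = 0.00085). P4ha3 did likewise (r = 0.56 and -0.54), and Npnt the reverse (r = -0.56 with olfactory bulb and 0.69 with cortical excitatory neurons). With olfactory bulb level added as a covariate 0 pairs of members passed, and without the 10 libraries low in it 0 passed.

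Mctp2 correlated with the claustrum (r = 0.52), striatum (r = 0.50) and deep layer (r = 0.42) lists, Matn2 with the deep layer (r = 0.52) and striatum (r = 0.37) lists, and Gsto1 with microglia (r = 0.43) and cortical excitatory neurons (r = 0.42). For Matn2 and the deep layer list rho was 0.39. Without the 2 libraries farthest from the median marker level, that r was 0.34, the r of Gsto1 with cortical excitatory neurons 0.30 and the r of Mctp2 with the deep layer list 0.54. Cd44, Ccdc80, S100a10 and Map3k15 had no correlation that passed. Bcl11b, among the genes most like Matn2 below, is itself in the deep layer list.

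**Figure D5:**
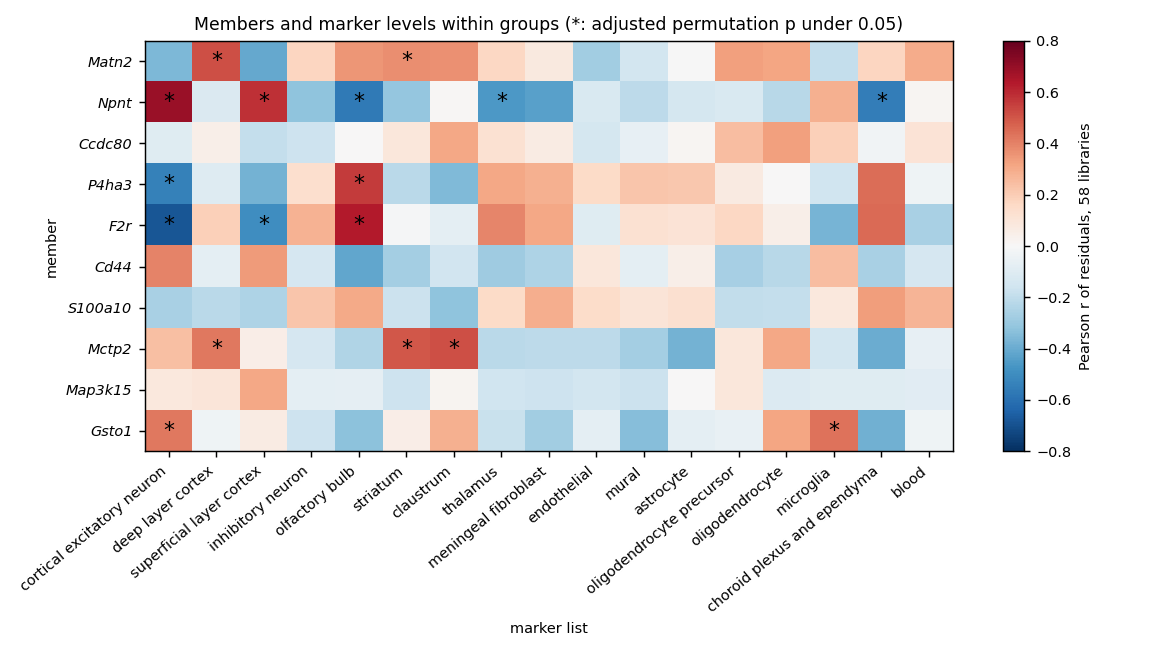
Pearson r between residuals of each gene (rows) and of each marker level (columns) over 58 libraries, red above 0 and blue below 0, with a star where the adjusted permutation p is under 0.05. F2r and P4ha3 are red and Npnt blue for olfactory bulb, with the signs turned for cortical excitatory neurons.

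The same marker lists were set beside the genotype and drug results. Olfactory bulb sums ran from 169.8 to 11816.4 in HT and from 141.3 to 11269.4 in WT, and none of the 6 genes passed between genotypes over treatments. Within treatments the mean sums were 4106.2 in HT and 2551.1 in WT with vehicle. They were 3055.1 and 3918.8 with fluoxetine, and 2964.6 and 3199.0 with lithium. The part of this level in the genotype differences under each treatment, such as that of P4ha3 under vehicle, was not tested. With olfactory bulb level as a covariate the HT minus WT log2 difference over treatments was 0.29 for F2r, 0.35 for P4ha3 and 0.20 for Npnt. Without the covariate the values were the same to 2 decimals. The members were selected on this contrast, so nothing is read from that. Striatal sums had a median of 7905.8 in HT and 7457.4 in WT, with 0 of 11 genes passing. With the striatal level as a covariate the difference of Mctp2 was 0.35, where it was 0.45 without it, and that of Matn2 was 0.18, where it was 0.21. Of 11 astrocyte genes 1 passed between genotypes, lower in HT, and their sums had a median of 123110.1 in HT and 131358.1 in WT. The part of that list in the genotype differences was not tested. For lithium against vehicle, 3 of 5 claustrum markers fell, and the correlation of Npnt with that list did not pass. Npnt did correlate with the superficial layer list (r = 0.58, adjusted permutation p = 0.00198), of which 1 of 5 genes fell with lithium. It correlated inversely with choroid plexus and ependyma (r = -0.55, adjusted permutation p = 0.00446) and thalamus (r = -0.46, adjusted permutation p = 0.037), where 0 of 5 and 0 of 4 genes passed. The part of these lists in the lithium value of Npnt was not tested. Cortical excitatory sums had medians of 158609.5 with vehicle and 156269.0 with lithium, and none of the 8 genes passed. The part of that list in the lithium value of Npnt was not tested either. Npnt rose by 0.17 with lithium when olfactory bulb level was a covariate (limma adjusted p = 0.00212) and by 0.16 without the 10 libraries (adjusted p = 0.0216). Under these 2 settings Npnt also fell with fluoxetine, by 0.11 (adjusted p = 0.0262) and by 0.14 (adjusted p = 0.0345). For fluoxetine against vehicle 2 of 8 cortical excitatory genes fell, the list with which Npnt correlated at 0.69 and Matn2 at -0.36 (adjusted permutation p = 0.112 for Matn2), and their sum had a median of 157292.5 with fluoxetine. Of 10 oligodendrocyte genes 4 rose, with median sums of 112812.4 with vehicle and 129218.4 with fluoxetine, and Matn2 correlated with that list at 0.31 (adjusted permutation p = 0.158). The part of these 2 lists in the fluoxetine values of Matn2 and Npnt was not tested. Of 7 deep layer genes none passed, and Matn2 rose by 0.17 with that level as a covariate (limma adjusted p = 0.00375).

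The genes whose residuals were most like each member's are given as a description over 58 libraries that share their dissection and depth. For F2r they were Pappa (r = 0.76), Hs3st3a1 (0.75) and Fgfr2 (0.75), and for P4ha3 Artn, Taf8 and Lcat (0.68 each). For Npnt Ttl and Stum (0.77 each) were among them, and for Cd44 they were Cfap52 (0.57), F2rl2 (0.54), which encodes the thrombin receptor PAR3, and Cbln2 (0.53). For Matn2 they were Dgkg (0.70), Rhbdl3 (0.65) and Bcl11b (0.64), and for Ccdc80 Tfap2d and Crtac1 (0.62 each) were among them. For S100a10 the 3 were the ribosomal protein genes Rpl30 (0.72), Rpl17 (0.62) and Rpl23 (0.61). For Mctp2 they were Olfm3 (0.66), Dsg2 and Stxbp5 (0.65 each), for Gsto1 Stmn1 (0.74), Praf2 and Nudt3 (0.65 each), and for Map3k15 Etv6 (0.52), Gfm2 (0.50) and Frrs1 (0.49).

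Npnt and S100a10 lie on chromosome 3, P4ha3 and Mctp2 on chromosome 7, and Gsto1 on chromosome 19 with Kmt5b. Of 140 tested genes that start within 1 Mb of a member, none passed HT against WT in limma, and 16 had an unadjusted p under 0.05, as did 10.6% of all genes.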

How the data were processed

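Poly(A) RNA of prefrontal cortex had been sequenced as 58 stranded libraries, per the labels' protocols. The submitters' processing notes name Salmon 0.11.2, R 3.6.0, DESeq2 1.19.11 and GRCm38. The authors deposited 1 table of normalised signal per gene, in which 100% of values were whole multiples of 1 step per library within 0.01, as counts divided by a size factor. Depth was 23.5 to 38.6 M recovered reads. Of the gene IDs, 18077 matched a symbol in GENCODE M21 and 11 did not.

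Values were log2 transformed after adding 1, and genes with a mean of at least 10 were fitted in limma 3.58.1 (R 4.3.3), with 1 coefficient for each of 12 groups, a variance trend and Benjamini-Hochberg adjustment over 16669 genes. Fold changes are on that log2 scale. edgeR 4.0.16 and DESeq2 1.42.0 ran on recovered reads of 54 libraries, since in 4 the step was too close to 1. There, HT against WT called 53 genes in edgeR, 97 in DESeq2 and 54 in limma. The plan foresaw either unit. Correlations used residuals and 100000 permutations within groups. Replicates of a group differed beyond sampling noise, with a chi-square per degree of freedom from 2.94 to 57.0 over 112 pairs. The fit was tested on simulated data.

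The members, gene lists, marker lists and tests were chosen with earlier results of these data known. Named were the 10 genes, and per list those that passed, up to 6 for genotype and 4 for a drug, or otherwise the 2 with the smallest p, beside 3 like genes per member. A few of the genes so picked are left out of the text. Alternatives were another normalisation, variance model, filter, pseudocount, covariate and test, a replicate block, and leaving out libraries.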

Additional observations from a re-analysis of the deposited data

Results flagged for a closer look

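Of 60 groups of 1 gene, genotype and treatment, 3 held a library set far from the others, and chance alone marks about 1 in 20 groups. Cd44 was lowest in WT vehicle male 2, at 68.9 normalised counts where the next library had 91.0. P4ha3 was highest in HT fluoxetine male 4, at 124.5 where the next had 94.3. Mctp2 was highest in HT lithium female 4, at 83.7 where the next had 64.9.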

How the results depend on the processing

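The calls of Matn2 with fluoxetine (log2 0.16 to 0.20 over 58 fits that each left out 1 library), of Npnt with lithium (0.15 to 0.19) and of both between the drugs held in all 58 of these and in all 17 other alternatives. All 10 genotype differences stayed above 0 in every alternative. The choice of members on these same libraries nearly fixes that sign, so nothing is read from it. With fluoxetine, 2 members were called when olfactory bulb level was a covariate and 2 without the 10 libraries low in it, an alternative chosen after seeing the data, and leaving out 1 library gave 1 to 2. Partner genes called between genotypes numbered 1 with the olfactory bulb covariate (Hapln3), 2 with the meningeal fibroblast covariate (Gstt2, Srpx2) and 1 with the deep layer covariate (Gstt2), and 0 to 2 when 1 library was left out. These included 1 without HT fluoxetine female 4, HT fluoxetine male 4 or HT lithium female 2 and 2 without WT fluoxetine male 1.

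Correlated pairs of members, 2 in the report, numbered 1 after quantile normalisation, 0 with the olfactory bulb covariate, 1 with the fibroblast covariate, 0 without the 10 libraries and 4 without the library highest in striatal markers (also chosen after seeing the data), HT fluoxetine female 2. Leaving out 1 library gave 0 to 4: 0 without HT fluoxetine male 3, HT vehicle male 2 or WT fluoxetine male 2, and 4 without WT vehicle female 5. Correlations with markers, 17 in the report, numbered 6 with the olfactory bulb covariate and 29 with the deep layer covariate, and 13 to 22 when 1 library was left out. With the replicate block 5 pairs were correlated, and members called were 1 for each drug and 2 between drugs, as without it. Replicate numbers did not pair the libraries: same-numbered libraries had a median r of -0.007, and 22.01% exceeded 0.1 against 22.48% of others. Over all genes, 196 passed HT against WT with the olfactory bulb covariate, where 78 passed without, and 54 passed when the 10 libraries low in that level were left out. For HT against WT under fluoxetine these counts were 245, 102 and 2. Leaving out the 10 also makes the groups smaller. Low-count members (Mctp2, Map3k15, P4ha3) limit how small a difference could be seen.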
